A study of Mus musculus with 8 samples.

Results

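Hepatokines are hormones and hormone-like proteins that the liver secretes into the blood. Their genes Fgf21, Fgl1, Angptl4, Angptl6, Angptl8, Igfbp1, Gdf15, Lect2 and Ahsg, were followed in liver RNA-seq counts. These 9 genes were chosen by name, 1 Ensembl gene ID each, from the 56748 IDs of the count table. They were chosen with earlier results of these data known. Knockout of the microRNA miR-93 was profiled in 4 liver libraries and wild type in another 4. Both groups of mice ate a diet high in fat and fructose and are labelled with steatotic liver disease of metabolic origin (MASLD) and with 16 weeks, so no lean or chow-fed liver stands beside them. The labels give neither sex nor age, nor whether the deletion is limited to hepatocytes. Separate animals are not stated for the libraries, and each p-value reflects library-to-library spread, which may be technical. The title of the series names the deacetylase SIRT1 as a target of miR-93 in the liver.

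Hepatokines let the liver report its nutritional state to other tissues. FGF21 is a fasting and stress hormone that signals through FGF receptors with the co-receptor beta-klotho, and its gene is a classic target of the fatty acid receptor PPAR-alpha and of the stress factor ATF4. ANGPTL4 and ANGPTL8 act as inhibitors of lipoprotein lipase, the enzyme that releases fatty acids from circulating triglyceride. Angptl4 is induced in fasting, and Angptl8 is induced by feeding and insulin. IGFBP1 binds insulin-like growth factors, and insulin shuts its gene off through FOXO1. FGL1 is a fibrinogen-like protein induced by interleukin-6 and a ligand of the immune receptor LAG3. GDF15 is a stress hormone that acts on the brainstem receptor GFRAL. LECT2 and fetuin-A, the product of Ahsg, are plasma proteins linked to insulin resistance.

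The microRNA removed in the knockout is shown because its seed, bases 2 to 8 and in capitals here, is the part that pairs with targets (RefSeq, GRCm38.p6).
mmu-miR-93-5p: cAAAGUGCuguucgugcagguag
The complement of this seed, GCACTTT, was in the longest annotated 3′ UTR of 0 of the 9 hepatokine genes, and in those of 15.0% of 11598 tested genes (GENCODE M21). The 9 UTRs were 74 to 1637 bases long, against a median of 1346 bases for the tested genes. No match says only that these letters are not in these windows.

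RefSeq promoter windows (GRCm38.p6) were at hand for 7 of the 9 genes. The 250 bases before the start are shown for Fgf21 and Igfbp1, which were higher in knockout livers, and for Angptl8, which was lower. Capitals mark matches, on either strand, to the composite ATF4 motif TGATGCAA, the E-box CACGTG, the TATA box TATAAA and the insulin response motif CAAAACA.
Fgf21, chr7:45615491-45615740, minus strand: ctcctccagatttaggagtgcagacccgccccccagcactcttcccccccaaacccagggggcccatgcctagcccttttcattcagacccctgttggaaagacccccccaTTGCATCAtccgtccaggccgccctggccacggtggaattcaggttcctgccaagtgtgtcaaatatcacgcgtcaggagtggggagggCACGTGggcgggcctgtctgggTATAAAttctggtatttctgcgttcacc
Igfbp1, chr11:7197537-7197786, plus strand: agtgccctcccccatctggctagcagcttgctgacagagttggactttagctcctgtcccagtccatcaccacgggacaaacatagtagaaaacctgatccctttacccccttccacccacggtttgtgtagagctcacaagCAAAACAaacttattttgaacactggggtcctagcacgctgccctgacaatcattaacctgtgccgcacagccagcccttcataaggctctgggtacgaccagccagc
Angptl8, chr9:21835260-21835509, plus strand: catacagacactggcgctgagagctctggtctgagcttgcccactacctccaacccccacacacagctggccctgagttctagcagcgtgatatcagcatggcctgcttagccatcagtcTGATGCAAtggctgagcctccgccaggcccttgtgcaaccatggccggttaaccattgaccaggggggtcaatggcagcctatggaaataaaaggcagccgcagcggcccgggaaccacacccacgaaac
The ATF4 motif was at bases 139 to 132 before the start of Fgf21 and at 130 to 123 before that of Angptl8, and 0.792% of the 32851 RefSeq windows held it. The insulin response motif of Igfbp1 was at bases 108 to 102 before its start, and 5.56% of all windows held it. CACGTG was in 6.02% of windows and TATAAA in 12.4%. The forkhead motif GTAAACA, the cAMP response element TGACGTCA, the STAT motif TTCNNNGAA and the sterol motif TCACNCCAC were in none of the 3 windows, and were held by 3.17%, 1.55%, 7.02% and 1.05% of all windows in that order. The direct-repeat motif DR1 (AGGNCA, any base, AGGNCA) was also searched, was in none of the 3 windows and was held by 0.338% of all windows. Among windows not shown, those of Ahsg, which was also higher in knockout, Angptl6 and Lect2 held none of the motifs searched. Those of Gdf15 held DR1 and CACGTG. The capitals do not overlap each other. A match is a description of the letters and not evidence of a bound site.

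Library totals ran between 9187279 and 10966019 counts in knockout and between 5085860 and 7451026 in wild type. Mitochondrially encoded genes made up 8.08% to 15.03% of knockout counts and 25.4% to 77.8% of wild-type counts. Wild-type replicate 4 stood apart with 77.8% and with 1131446 counts outside the mitochondrial genome, against 4581983 to 9686379 in the other 7 libraries. Its values are named below, and results that rest on it are given with and without it. Mir93 had 0 counts in every library of both groups, which leaves the deletion unchecked by these counts. Levels below are in CPM, counts scaled to library size with TMM factors. Each log2 fold change is that of knockout relative to wild type, ± the standard error of edgeR's quasi-likelihood fit, with Benjamini-Hochberg adjusted p over the 13204 genes tested and a threshold of 0.05. Sirt1 averaged 13.4 CPM in knockout livers, against 17.9 CPM in wild-type livers (log2 fold change -0.34 ± 0.21, adjusted p = 0.268).

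Of the 9 hepatokine genes, 5 were higher in knockout, 1 was lower and 3 did not pass the threshold. Fgf21, Fgl1, Igfbp1, Angptl4 and Ahsg were the higher ones and Angptl8 was the lower one. Over all tested genes 10.4% were called higher and 10.7% lower. Because the 9 genes were chosen with earlier results of these data known, shares set beside them here are a description and not a test. The groups did not overlap for 8 of the 9 genes, with knockout higher in 6 and lower in 2, against 16.3% and 14.0% of all tested genes. The median log2 fold change of the 9 genes was 1.04 and that of all tested genes -0.01. Without wild-type replicate 4, Gdf15 was also called higher and Angptl6 also lower, which made 6 and 2 of 9, against 17.8% and 17.5% of the 13777 genes then tested. All 9 passed the filter on low counts, Fgf21 through its knockout libraries alone, so its presence among tested genes already required a difference.

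**Figure D1:**
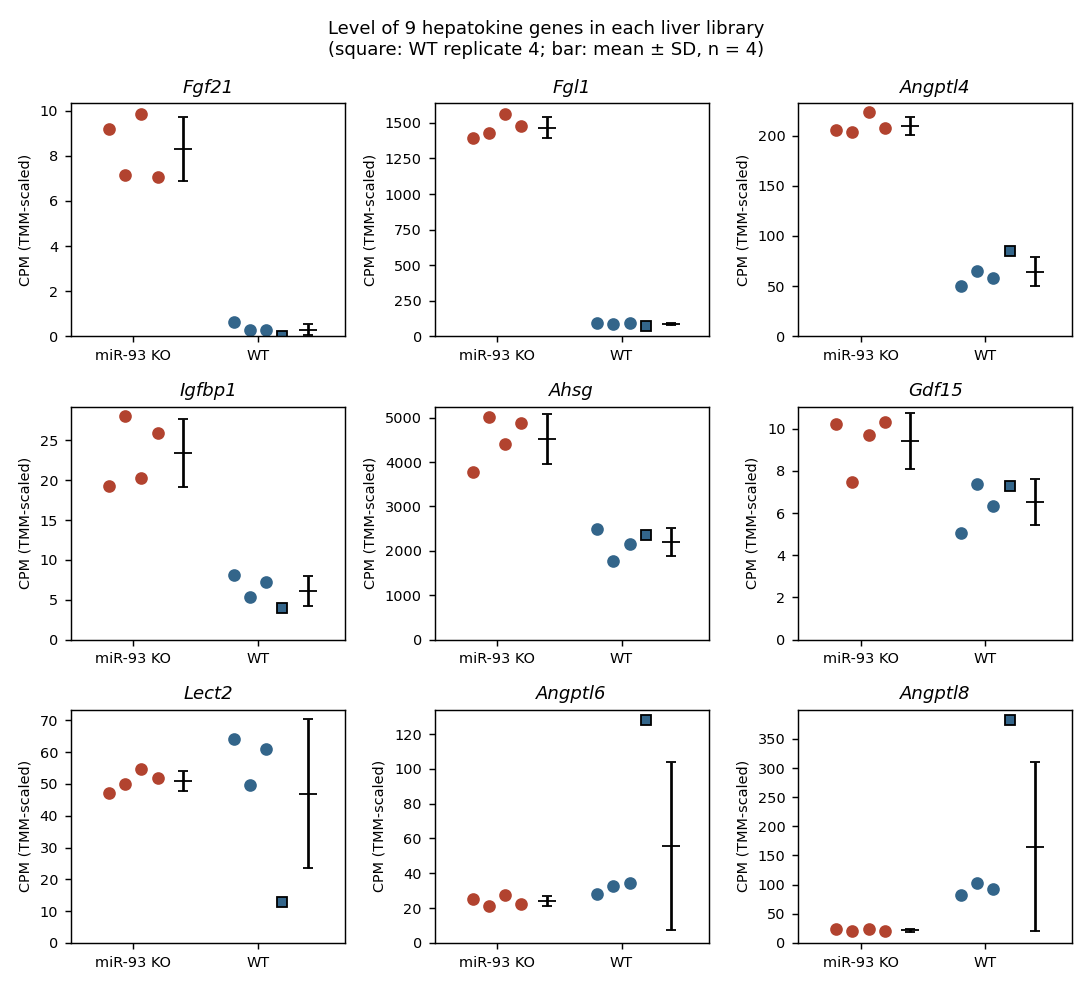
Level of each of the 9 genes (y axis, TMM-scaled CPM, linear from 0) in each library, knockout left and wild type right, with mean ± SD (n = 4). The 4 knockout libraries lie above all wild-type libraries for Fgf21, Fgl1, Angptl4, Igfbp1, Ahsg and Gdf15, while wild-type replicate 4 (square) sits at 382 CPM for Angptl8, 128 CPM for Angptl6 and 12.9 CPM for Lect2, away from the other wild-type libraries.

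Fgf21 had the largest rise among the 9 genes. It stood at 9.17, 7.13, 9.83 and 7.06 CPM in knockout libraries 1 to 4, against 0.63, 0.27, 0.30 and 0 CPM in wild-type libraries 1 to 4. Fgf21 was thus low in knockout and near the detection limit in wild type, with no overlap. The raw counts were 85 to 135 per knockout library and 0 to 5 per wild-type library, where the 0 of replicate 4 allows up to 3 counts, or 1.68 CPM. The log2 fold change was 4.42 ± 0.38 (adjusted p = 2.17e-05), with a 95% interval of 3.58 to 5.25. Its size rests on 9 wild-type counts in all.

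The receptors of FGF21 did not follow the hormone. Klb, the gene of the co-receptor beta-klotho, averaged 4.70 ± 0.65 CPM in knockout livers, against 6.12 ± 4.17 CPM in wild-type livers (SD, n = 4 per group). On the log2 scale Klb was at -0.17 ± 0.35 (adjusted p = 0.778), and it turned to 0.22 without wild-type replicate 4, again short of the threshold (adjusted p = 0.510), and to 0.51 with library size alone. All 4 FGF receptor genes were lower in knockout. Fgfr1, the receptor FGF21 uses in fat, stood at 12.3, 12.3, 14.4 and 12.4 CPM in knockout, against 30.6, 36.5, 33.1 and 30.3 CPM in wild type (-1.35 ± 0.13). Fgfr4, the main FGF receptor of hepatocytes, had 34.9 ± 1.60 CPM (SD) in knockout livers, against 75.5 ± 22.5 CPM in wild-type livers (-1.09 ± 0.19, adjusted p = 0.00265). Fgfr2 and Fgfr3 changed by -0.66 and -1.66. Among 12 tested receptor and partner genes of the 9 hepatokines, 5 were lower and 1, Met, was higher, the last not called without knockout replicate 2, 3 or 4 or without wild-type replicate 2. None of the 12 was called when libraries were scaled by total counts alone. That scaling raised the median gene by 0.55 and left Fgfr1 at -0.80 and Fgfr4 at -0.42.

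Regulators known to act on Fgf21 moved unevenly. Ppara had 34.0, 34.6, 32.0 and 31.0 CPM in knockout, against 16.6, 16.9, 13.2 and 15.1 CPM in wild type (1.08 ± 0.13, adjusted p = 2.44e-04). Its partner receptor gene Rxra was also higher (0.68 ± 0.13). Creb3l3, whose liver-enriched product is known to act with PPAR-alpha on Fgf21, was at 0.30 ± 0.13 (adjusted p = 0.130), and passed the threshold without wild-type replicate 4 (0.28, adjusted p = 0.0255). Mlxipl, the gene of the sugar sensor ChREBP, which is also known to induce Fgf21, was lower (-0.83 ± 0.17). Of 20 known PPAR-alpha targets, 18 were higher and none lower, with a median of 1.32, and 1 was lower without wild-type replicate 4. The share of higher genes over all tested genes was 10.4%, and this list was chosen with earlier results of these data known. The largest change in that list was in the omega-hydroxylase gene Cyp4a14 (6.84 ± 0.46), followed by Cyp4a10 (4.62) and Cyp4a31 (4.55), and Acot1 was at 3.68. These 4 have near-identical relatives, and no source used here tells how the authors counted reads that fit several copies. Over 26 listed transcriptional regulators of the hepatokines, 5 were higher, 3 lower and 18 not called, or 7 higher and 8 lower without wild-type replicate 4. The whole table had 10.4% higher and 10.7% lower, or 17.8% and 17.5% without that replicate.

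Fgl1, a minor transcript in wild type and a prominent one in knockout, stood at 1394, 1430, 1562 and 1477 CPM in the knockout libraries, against 91.4, 88.0, 96.1 and 74.6 CPM in the wild-type libraries. The spread within either group was small beside the gap between the groups, and wild-type replicate 4 lay near the other wild-type libraries. The log2 fold change of Fgl1 was 4.06 ± 0.15 (adjusted p = 3.77e-08), 16.7-fold on the linear scale. Its relatives in the fibrinogen clot protein family were higher as well. Fga was at 2.11 ± 0.29, Fgb at 1.48 ± 0.13 and Fgg at 2.04 ± 0.18, while the immune relative Fgl2 was at -0.39 ± 0.50 (adjusted p = 0.622, and 0.14 without wild-type replicate 1 or 0.08 with library size alone). Fgl1 thus had a larger fold change than each of its 4 tested relatives, a difference between genes that was not itself tested.

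Lag3, the gene of the immune receptor on T cells that binds FGL1, was low and was lower in knockout. It had 2.03, 2.10, 1.38 and 0.99 CPM in knockout, against 4.41, 5.21, 4.99 and 3.93 CPM in wild type (-1.54 ± 0.32, adjusted p = 0.00633). Markers of T and NK cells are given beside it. Of 9 listed T and NK markers 5 were tested and 3 of these were lower, against 10.7% of all tested genes. The markers summed to 5.54 to 8.27 CPM in the knockout libraries, against 10.3 to 19.1 CPM in the wild-type ones. That count of 3 was 0 or 1 when any 1 of the 7 libraries besides wild-type replicate 4 was left out, 4 without that replicate, and 0 with library size alone or without a filter on low counts. Their part in the Lag3 result was not tested. In bulk liver RNA fewer cells of a type and less RNA per cell cannot be told apart.

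All 20 genes of a list of interleukin-6 and STAT3 acute-phase genes, the group in which Fgl1 is usually placed, were higher in knockout, with a median of 2.01. Over all tested genes 10.4% were higher. The list was chosen with earlier results of these data known, and 16 to 20 of its genes were higher across 21 alternatives. Stat3 itself was at 1.09 ± 0.12. The siderophore-binding protein gene Lcn2 was at 6.24 ± 0.25 and the pentraxin gene Apcs at 2.64 ± 0.15. Kupffer cell markers were higher in 7 of 11 cases, with sums of 183 to 220 CPM in knockout and 65.0 to 84.6 CPM in wild-type replicates 1 to 3, but 225 CPM in wild-type replicate 4. The count of 7 was 4 without knockout replicate 2 or 4 and 10 without wild-type replicate 4. Their part in the acute-phase result was not tested.

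The lipase inhibitors moved in opposite directions. Angptl4 stood at 205, 203, 223 and 207 CPM in knockout, against 50.5, 64.7, 58.4 and 84.7 CPM in wild type. It was higher in every knockout library, with a log2 fold change of 1.71 ± 0.17 (adjusted p = 5.09e-05). Angptl8 stood at 23.4, 19.6, 24.0 and 20.1 CPM in knockout, against 82.4, 102, 93.0 and 382 CPM in wild type. Every knockout library was below every wild-type library, and wild-type replicate 4 was 4.13 times the mean of the other 3. The log2 fold change of Angptl8 was -2.89 ± 0.46 (adjusted p = 0.00147), or -2.08 without wild-type replicate 4 (adjusted p = 2.56e-13).

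Angptl6, an angiopoietin-like gene linked to energy expenditure in mice, had 25.3, 21.0, 27.2 and 22.5 CPM in knockout, against 27.8, 32.8, 34.6 and 128 CPM in wild type. The groups did not overlap, but the log2 fold change of -1.12 ± 0.42 missed the threshold (adjusted p = 0.0810, 95% interval -2.04 to -0.20). Leaving out wild-type replicate 4 shrank it to -0.39 and brought it past the threshold (adjusted p = 0.0165), as did leaving out wild-type replicate 1, at -1.34 (adjusted p = 0.0459).

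The ratio of Angptl8 to Angptl4 counts within a library does not depend on scaling between libraries. Its log2 value was -3.13, -3.37, -3.21 and -3.36 in the knockout libraries, against 0.70, 0.66, 0.67 and 2.17 in the wild-type libraries. Angptl4 had more counts than Angptl8 in every knockout library and fewer in every wild-type library. The group means differed by -4.32 (two-sided exact permutation p = 0.0286, the smallest that 70 assignments allow, n = 4 each). Each gene alone already separated the groups, in opposite directions, so the ratio had to separate them too. Its p-value therefore restates the results of the genes and adds no further test. Without wild-type replicate 4 the difference was -3.95.

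**Figure D2:**
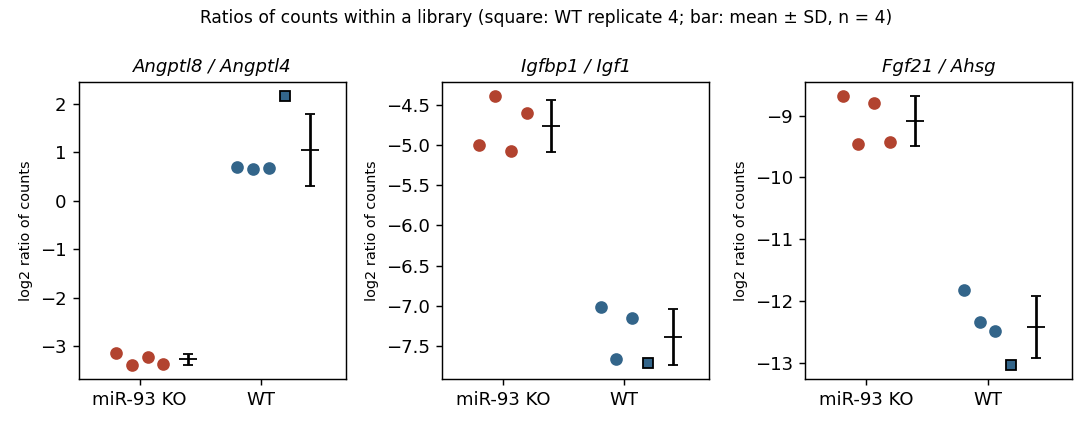
Log2 ratio of raw counts (y axis) of Angptl8 to Angptl4, Igfbp1 to Igf1 and Fgf21 to Ahsg in each library, knockout left and wild type right, with mean ± SD (n = 4). The knockout and wild-type libraries do not overlap in any of the 3 ratios, and wild-type replicate 4 (square) lies at 2.17 in the first ratio against 0.66 to 0.70 in the other wild-type libraries.

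Angptl8 lies within the larger gene Dock6, on the opposite strand, and shares none of its exons (GENCODE M21). Dock6, a signalling exchange factor gene, was itself lower, at 25.0 ± 4.25 CPM in knockout livers, against 81.5 ± 36.0 CPM in wild-type livers (SD, n = 4 per group). Knockout over wild type, Dock6 was at -1.67 ± 0.26 on the log2 scale (adjusted p = 0.00126). The sources used here do not say whether counting used the strand, so reads from unspliced Dock6 RNA cannot be told apart from Angptl8 reads. Angptl6 shares 265 exon bases with A230050P20Rik on the other strand, which was at -0.79 ± 0.27 (adjusted p = 0.0577). Of the other genes around lipoprotein lipase, Lpl was at -0.10 ± 0.57 (adjusted p = 0.923) and turned to 0.67 without wild-type replicate 4 (adjusted p = 0.0939). It also turned positive, uncalled, without knockout replicate 4, with limma-voom and with library size alone. In the list of 12 genes of this enzyme and its regulators, 1 was higher and 2 lower, against 10.4% and 10.7% of all tested genes. The higher one was Gpihbp1 (1.31), the gene of the endothelial anchor of the lipase, and it was not called without any single one of the libraries other than wild-type replicate 4. The endothelial lipase gene Lipg was among the lower ones (-1.02 ± 0.15). Without wild-type replicate 4 the counts were 4 and 3, against 17.8% and 17.5% of all genes then tested. With library size alone they were 0 and 0.

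Of the defining adipocyte markers, Lep had 0 counts in all 8 libraries, and Adipoq had 0 CPM in every knockout library and at most 0.61 CPM in wild type. The whole list of 7 summed to 19.7 to 25.9 CPM in knockout and 16.6 to 40.9 CPM in wild type, highest in wild-type replicate 4, and Cidec, the higher one of 2 tested, is also expressed in fatty liver. The part of adipocyte RNA in these results was not tested. Targets of ChREBP, SREBP1c and LXR, the feeding factors known to act on Angptl8, were lower in 12 of 17 tested genes and higher in 2. Over all tested genes 10.7% were lower and 10.4% higher, and this list was also chosen with earlier results known. Thrsp was at -5.30 ± 0.16, Fasn at -4.00 ± 0.14 and Acly at -3.03 ± 0.15, and Srebf1, the gene of SREBP1c, was at -2.09 ± 0.14.

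Igfbp1 was higher in knockout, though not abundant in either group. It stood at 19.3, 28.0, 20.2 and 26.0 CPM in knockout, against 8.06, 5.34, 7.26 and 3.93 CPM in wild type. The groups did not overlap, and the log2 fold change was 1.84 ± 0.21 (adjusted p = 1.77e-04). The insulin-like growth factor gene Igf1 was lower, at 619, 586, 679 and 631 CPM in knockout, against 1051, 1099, 1048 and 882 CPM in wild type (-0.70 ± 0.13, adjusted p = 0.00382, or -0.17 and not called with library size alone). The log2 ratio of Igfbp1 to Igf1 counts was -5.00, -4.38, -5.07 and -4.60 in knockout, against -7.02, -7.67, -7.16 and -7.71 in wild type. The means of this ratio differed by 2.63 (two-sided exact permutation p = 0.0286, n = 4 each). Igfbp1 and Igf1 each separated the groups, in opposite directions, so this p-value was fixed in advance and adds no further test.

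The binding protein gene Igfbp2 was also higher, at 281 ± 16.1 CPM in knockout livers, against 101 ± 14.1 CPM in wild-type livers (SD, n = 4 per group), a log2 fold change of 1.47 ± 0.14 by edgeR (adjusted p = 5.09e-05). Apart from Igfbp1, 1 of 8 tested genes of this axis was higher, 2 were lower and 5 were not called. Beside this list and the next, 10.4% of all tested genes were higher and 10.7% lower. Other genes that insulin represses through FOXO factors did not move as a group. Of 11 tested genes besides Igfbp1, 2 were higher and 3 lower, with a median of -0.09. The pyruvate dehydrogenase kinase gene Pdk4 was at 1.96 ± 0.35, while G6pc, the gene of the last enzyme of glucose release, was at -2.17 ± 0.14. Foxo1 was at 0.45 ± 0.12 (adjusted p = 0.0224), but leaving out any 1 of knockout replicates 2 to 4 or of wild-type replicates 2 and 3 ended the call (adjusted p 0.0521 to 0.0751).

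Gdf15 did not pass the threshold with all 8 libraries. It had 10.2, 7.47, 9.69 and 10.3 CPM in knockout, against 5.04, 7.40, 6.35 and 7.29 CPM in wild type. Knockout replicate 2 and wild-type replicate 2 lay almost level, and the groups did not overlap. The log2 fold change was 0.56 ± 0.20 (adjusted p = 0.0713, 95% interval 0.12 to 1.00), and 0.61 without wild-type replicate 4 (adjusted p = 0.0177). Its receptor gene Gfral and the co-receptor gene Ret had 0 counts in all 8 libraries.

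Stress genes that share ATF4 with Gdf15 and Fgf21 were mixed, with 3 of 12 tested genes higher and 2 lower. Among all tested genes 10.4% were higher and 10.7% lower. The counts were 5 and 2 without wild-type replicate 4. They were 2 and 1 without any 1 of knockout replicates 2 and 4 and wild-type replicate 2. Chac1, which degrades glutathione, was at 2.56 ± 0.36 and Atf5 at 1.29 ± 0.16, while Atf3 was at -1.96 ± 0.53 and Cth at -1.17 ± 0.24. Leaving out any 1 of knockout replicates 2 to 4, or wild-type replicate 2, ended the call of Atf3 (adjusted p 0.0592 to 0.0881). Atf4 itself was lower (-0.60 ± 0.17, adjusted p = 0.0266), but its call was lost without any single knockout library (adjusted p 0.0640 to 0.0916), and it read 0.06 with library size alone.

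Of the genes of fetuin-A and LECT2, Ahsg was higher and Lect2 was not called. Ahsg stood at 3778, 5027, 4397 and 4882 CPM in knockout, against 2502, 1782, 2160 and 2360 CPM in wild type. The groups did not overlap, and the log2 fold change was 1.04 ± 0.16 (adjusted p = 0.00111). An antisense gene, Gm30505, shares 62 exon bases with Ahsg and was also higher (1.20 ± 0.36), and without known strand use their reads cannot be told apart there. Of 6 relatives in the fetuin and cystatin superfamily, 4 were higher and none lower, against 10.4% and 10.7% of all tested genes. The higher ones included fetuin-B, Fetub, at 0.75 ± 0.12 and the histidine-rich glycoprotein gene Hrg at 1.35 ± 0.13.

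Lect2 had 47.2, 50.0, 54.6 and 51.8 CPM in knockout, against 64.1, 49.7, 61.0 and 12.9 CPM in wild type. The groups overlapped and wild-type replicate 4, with 23 counts, was far below all other libraries. The log2 fold change of 0.07 ± 0.32 (adjusted p = 0.910) had a 95% interval of -0.63 to 0.76, and without wild-type replicate 4 it turned to -0.19 (adjusted p = 0.180). A list of 12 plasma protein genes that fall in the acute-phase response or serve as a backdrop to it had a median of 0.0013. It held 1 higher gene, Rbp4 (1.13 ± 0.16), and 2 lower ones, against 10.4% and 10.7% of all tested genes. The lower ones were Serpina6 (-1.19 ± 0.14) and Alb, the albumin gene (-0.52 ± 0.14, adjusted p = 0.0233). The call of Alb was lost when any 1 of the 7 libraries besides wild-type replicate 4 was left out (adjusted p 0.0656 to 0.0865).

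The log2 ratio of Fgf21 to Ahsg counts was -8.68, -9.45, -8.80 and -9.43 in knockout, against -11.8, -12.3, -12.5 and -13.0 in wild type. Fgf21 thus gained on Ahsg in every knockout library, with means 3.33 apart (two-sided exact permutation p = 0.0286, n = 4 each). That p-value is the smallest that 70 assignments allow. Fgf21 passed the filter on low counts through its knockout libraries alone, so the p-value adds no further test. The size depends on the count added to each gene, 0.5 here, since adding 2 gave 2.43.

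**Figure D3:**
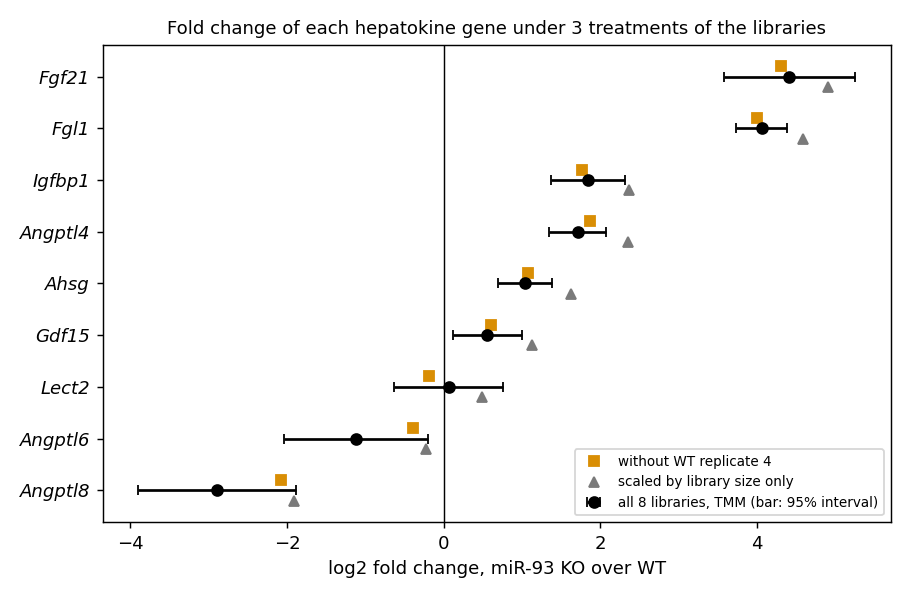
Log2 fold change, knockout over wild type (x axis), of each hepatokine gene with all 8 libraries (circle, bar 95% interval), without wild-type replicate 4 (square) and with scaling by library size only (triangle). Fgf21 and Fgl1 lie furthest to the right at 4.42 and 4.06 and Angptl8 furthest to the left at -2.89, and Angptl8 and Angptl6 move most when wild-type replicate 4 is left out, to -2.08 and -0.39.

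Divided by exon length, the levels of the 9 genes had a different order in each group. In knockout, Ahsg led at 2058 ± 257 CPM per kilobase (SD, n = 4), followed by Fgl1 at 331 ± 16.4. Angptl4 at 59.2 ± 2.61 and Lect2 at 55.4 ± 3.41 came next and overlapped each other. Angptl8 at 25.2 ± 2.62 was above Igfbp1 at 15.3 ± 2.79 and Angptl6 at 15.2 ± 1.77, a pair that overlapped, and Fgf21 at 8.73 ± 1.49 and Gdf15 at 5.09 ± 0.72 were last. In wild type, Ahsg led at 1002 ± 142 CPM per kilobase and Angptl8 was next at 191 ± 167. Lect2 at 51.1 ± 25.6, Angptl6 at 35.3 ± 30.4, Fgl1 at 19.7 ± 2.08 and Angptl4 at 18.2 ± 4.12 each overlapped the neighbour in this order. Igfbp1 at 4.03 ± 1.23 and Gdf15 at 3.52 ± 0.59 also overlapped, and Fgf21 was last at 0.32 ± 0.27. Without wild-type replicate 4 the wild-type mean of Angptl8 was 107 ± 11.5 CPM per kilobase and that of Angptl6 20.1 ± 2.22 (SD, n = 3). Lect2, at 63.4 ± 8.21, then overlapped neither neighbour, and Angptl6 came just after Fgl1, at 20.7 ± 0.91, with overlap. With or without that library, Angptl8 was above Fgl1 and Angptl4 in all wild-type libraries and below both in all knockout libraries.

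Genes with the most similar profile were found by the root mean square difference of log2 CPM, centred on each gene's mean, over the 8 libraries. This likeness holds the genotype difference itself and is a description only. For Fgf21 the nearest genes were the metallothionein gene Mt1 (0.31), Fgl1 (0.36) and the orosomucoid gene Orm2 (0.53). For Fgl1 they were Lrg1 (0.32), Mup19 (0.34) and Fgf21 (0.36). Angptl4 was nearest to the perilipin gene Plin4 (0.12), Grhpr (0.14) and Fndc3b (0.17), and Igfbp1 to Gfra1 (0.12), the selenium carrier gene Selenop (0.14) and Cpox (0.14). Angptl8 was nearest to Cfap100, Kcp and H2-K2, at 0.27 to 0.28. Mup19 and H2-K2 belong to families of near-identical genes, so their counts are uncertain.

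**Figure D4:**
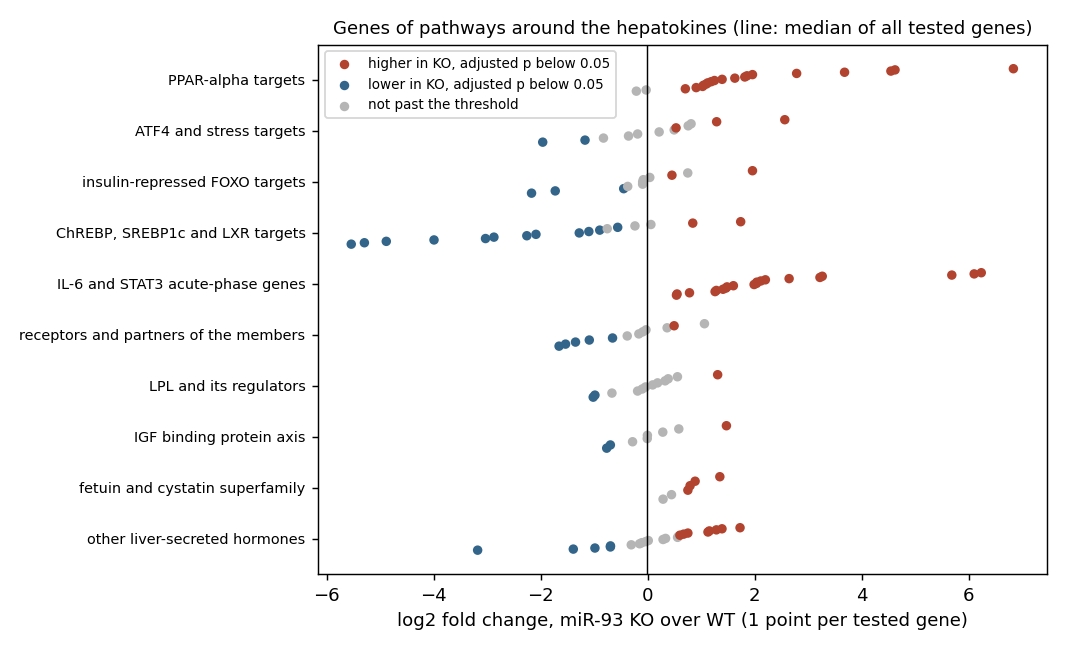
Log2 fold change, knockout over wild type (x axis), of each tested gene of 10 lists around the hepatokines, without the 9 genes themselves, with red for higher, blue for lower and grey for not past the threshold. The PPAR-alpha and acute-phase lists lie to the right, with 18 of 20 and 20 of 20 genes higher, and the ChREBP, SREBP1c and LXR list lies to the left, with 12 of 17 genes lower.

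With library size alone, 12 of 20 PPAR-alpha targets and 17 of 20 acute-phase genes were still higher and 8 of 17 ChREBP, SREBP1c and LXR targets still lower. Under that scaling 561 of all 13204 tested genes were higher and 124 lower. With Igfbp1 counted in, the FOXO list had 3 higher and 3 lower genes, and 4 and 4 without wild-type replicate 4, and the insulin-like growth factor list had 2 and 2, 4 and 3 without that library, and 2 and 1 without knockout replicate 2 or 4.

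Other liver-secreted hormone genes were split. Of 27 listed, 22 were tested, and 8 were higher and 5 lower, against 10.4% and 10.7% of all tested genes. The counts were 11 and 6 without wild-type replicate 4 and 5 and 1 with library size alone. Selenop (1.73 ± 0.26), Manf (1.15 ± 0.12) and the appetite-linked gene Enho (1.39 ± 0.25, named after its values were seen) were higher.

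Hepatocyte markers marked the tissue as liver in all libraries, with summed levels of 40572 to 46054 CPM in knockout and 46372 to 62788 CPM in wild type, and 2 of 10 were higher and 2 lower. Those counts were 0 to 2 higher and 1 lower when any 1 of the 7 libraries besides wild-type replicate 4 was left out, and 2 and 5 without it. Beside these marker counts, 10.4% of all tested genes were higher and 10.7% lower. Of 9 sinusoidal endothelial markers 5 were higher, or 2 of 8 tested after thinning and 3 with a minimum fold of 1.5. Their sums overlapped, at 147 to 272 CPM in knockout and 98.1 to 201 CPM in wild type, highest there in replicate 4. Of 3 tested cholangiocyte markers 2 were higher, or 0 without knockout replicate 2 or 4 and 1 without knockout replicate 3. Of 10 stellate and fibroblast markers 3 were lower, with sums of 174 to 202 CPM in knockout. Wild-type replicates 1 to 3 had 185 to 202 CPM, but wild-type replicate 4 had 452 CPM. Of 8 tested B and plasma cell markers 6 were lower, with overlapping sums of 15.5 to 88.8 CPM in knockout and 61.8 to 555 CPM in wild type. That count of 6 was 4 without knockout replicate 2 or wild-type replicate 1, and 0 of 2 tested after thinning. Among neutrophil markers 1 of 3 tested was higher, and Ly6g, Ngp and Mpo had 0 counts throughout. Of 7 pancreatic acinar and muscle markers 1 was tested and not called, and 4 were at 0. The part of these shifts in the hepatokine results was not tested.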

How the data were processed

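Bulk RNA sequencing of 8 liver libraries was deposited as 1 table of raw counts per gene, which the authors made from their reads with no normalization. The submitters' processing notes name cutadapt 4.2, STAR 2.7.10a and the mm39 build. The counting tool and its use of strand are not given in the sources used here. Gene names, exon lengths, overlaps and 3′ UTRs came from GENCODE M21 and promoter and microRNA sequences from RefSeq, both on GRCm38, and 52073 of the IDs had a name.

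Knockout was compared with wild type in R 4.3.3 with edgeR 4.0.16 (quasi-likelihood, robust, TMM factors, filterByExpr, two-sided, Benjamini-Hochberg over all genes tested). Limma 3.58.1 and DESeq2 1.42.0 served for alternatives. Intervals are 95%. Ratios within a library used counts plus 0.5 and exact permutation tests. The limit set by a 0 is 3 counts and covers counting error alone. Figures used matplotlib 3.10.9. The fit was tested on simulated data.

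The 9 genes and all lists were chosen with earlier results of these data known. The text names the 9 genes, a set of their receptors and regulators, up to 4 genes with the smallest p of each list and the 3 genes of most similar profile, and not every gene that this rule takes is described. Where a symbol had more than 1 ID the lowest ID was used. Replicate numbers did not pair the libraries (correlations of deviations -0.20 to -0.03). All 8 libraries entered the fit. Alternatives were other scalings, filters and tests, the replicate block, thinning to 1131446 counts outside the mitochondrial genome, a minimum fold of 1.5 and each library left out in turn. Using only counts outside the mitochondrial genome as library size was added after seeing the data. A few genes of the lists are counted but not reported here by name.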

Additional observations from a re-analysis of the deposited data

Results flagged for a closer look

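In a group of 4 libraries, a value was picked out where its gap to the nearest other value exceeded 0.829 of the group's range, which chance does in about 1 of 20 groups. Of 24 groups examined 3 were picked out, each time for wild-type replicate 4. Angptl8 stood there at 382 CPM, against 102 CPM in the next wild-type library. Angptl6 stood at 128 CPM, against 34.6 CPM in the next. The log2 ratio of Angptl8 to Angptl4 counts was 2.17, against 0.70 in the next. This is the library with 77.8% mitochondrial counts, and whether that bears on these values was not tested.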

How the results depend on the processing

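Across 21 alternatives Fgf21, Fgl1, Angptl4, Igfbp1 and Ahsg were called higher and Angptl8 lower in all 21. The count of higher hepatokine genes was 5 or 6. The count of lower ones, 1 with all libraries, was 2 with DESeq2, with limma-voom quality weights and after thinning, and 1 to 2 over the single libraries left out. Angptl6 was called in 5 of 21 alternatives, Gdf15 in 3 of 20 and Lect2 in 0 of 21. The 2777 genes called over the whole table became 685 with library size alone (561 higher, 124 lower, against 1369 and 1408), 4985 with quality weights, 1588 after thinning, 667 with a minimum fold of 1.5, and 1489 to 4853 without single libraries. The replicate block gave 1267 genes and ended no call among the 9 hepatokine genes. The cause of these moves was not tested.

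Signs turned for some uncalled genes and for Atf4 and Alb. Lect2 read -0.15 with quality weights and -0.19 (without wild-type replicate 4) to 0.24 (without wild-type replicate 1) over the single libraries left out. Klb read 0.51 with library size alone, 0.053 with limma-voom, 0.23 with quality weights and -0.34 to 0.22 over the libraries left out. Lpl read 0.68, 0.56 and 0.59 under the same 3 settings, 0.15 with the replicate block and -0.50 to 0.67 over the libraries left out, including 0.012 without knockout replicate 4. Fgl2 read 0.079 with library size alone and -0.60 to 0.14 over the libraries left out. With library size alone Atf4 read 0.065 and Alb 0.012. Fgf21 had 9 wild-type counts in all, and Gdf15 fell below the filter after thinning.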
